A study of Homo sapiens with 6 samples.

Results

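Carbonic anhydrases are zinc enzymes that turn carbon dioxide and water into bicarbonate and a proton, and back. The genes of 4 cytosolic forms, CA13, CA1, CA3 and CA2, lie side by side on the long arm of human chromosome 8. Red cells are rich in the products of CA1 and CA2, which let them carry carbon dioxide as bicarbonate, whereas CA3 is known mainly from skeletal muscle and fat. The levels of these 4 genes are described here in K562 cells with the SF3B1-K700E substitution and in K562 cells with wild-type SF3B1. K562 is an established human leukaemia line, grown from a patient with chronic myeloid leukaemia in blast crisis, that keeps features of erythroid cells. SF3B1 is a core subunit of the U2 snRNP, the part of the spliceosome that recognises the branch point of an intron.

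RNA was sequenced in 3 libraries of K562 cells with SF3B1-K700E (K700E) and in 3 libraries of K562 cells with wild-type SF3B1 (WT). All 6 came from the same line, and no treatment, time or age is given; nor do the labels say how the substitution was introduced, whether the K700E cells are 1 clone, or whether replicates are separate cultures. The tests below therefore measure the spread between these libraries only. The 4 genes were picked from 62111 listed genes because they are neighbours on chromosome 8 and because CA1, CA2 and CA3 were jointly higher in K700E libraries. Their difference between the genotypes is thus a description and carries no test. All 4 passed the filter for testing (15493 genes averaged 1 TPM or more across the libraries), although CA3 had a mean of only 0.857 TPM in WT libraries and passed through its K700E level. TPM is the number of reads per base of gene length, scaled to the same total in each library, so that levels of different genes can be compared.

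Recovered depth was 111628565 to 126480630 read ends in K700E libraries and 104642332 to 136588117 in WT libraries. SF3B1 itself stood at 138 ± 21.5 TPM in K700E and 119 ± 22.6 TPM in WT libraries (SD, n = 3 each), with a log2 difference of 0.22 and a limma adjusted p of 0.602. Values per gene do not show the substitution. The erythroid markers of K562 cells were present in all libraries: the fetal globin gene HBG1 stood at 1625, 1039 and 1191 TPM in K700E and 1743, 638 and 1430.0 TPM in WT, and the erythroid transcription factor gene GATA1 at 460, 417 and 540 TPM in K700E and 273, 494 and 468 TPM in WT. None of 7 such markers passed the limma test between genotypes, which called 1.38% of all genes tested. Of the 7, 2 had an unadjusted p under 0.05, and limma-voom on recovered reads also called 0. The median gene was higher in K700E by 0.13 on the log2(TPM + 1) scale, and scaling by median ratios moved this to -0.04.

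CA13 occupies positions 86157687 to 86196302 on the plus strand of chromosome 8 (GRCh37), and CA1 positions 86239837 to 86291243 on the minus strand. CA3 (86351088 to 86361269) and CA2 (86376236 to 86393722) both lie on the plus strand. The gaps between them are 43.5, 59.8 and 15 kb. No exon of CA1 or CA2 overlapped an exon of another listed gene. CA3 shared 206 exon bases (11.97% of its length) with the antisense gene CA3-AS1, and CA13 shared 260 bases (6.69%) with an antisense gene. Whether the counting used strand is not given in the sources used here, so reads in those bases cannot be assigned to either gene.

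CA1, the most abundant carbonic anhydrase of red cells, had the highest level of the 4 genes in 5 of the 6 libraries. It stood at 29.8, 59.2 and 53.3 TPM in K700E replicates 1, 2 and 3, against 10.6, 7.11 and 8.43 TPM in WT replicates 1, 2 and 3. These values rest on 3953, 8968 and 8354 read ends in K700E and 1371, 1221 and 1450 in WT. The groups did not overlap, and the lowest K700E library was 2.80 times the highest WT library. The means were 47.4 ± 15.6 TPM in K700E and 8.72 ± 1.77 TPM in WT (SD, n = 3 each), a ratio of 5.44 and a log2(TPM + 1) difference of 2.27 (SE 0.28).

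CA2, the fast form found in red cells, kidney and bone-resorbing cells, had the largest difference of the 4 and the widest spread. Its level was 64.5, 15.4 and 23.1 TPM in K700E replicates 1, 2 and 3, against 2.24, 1.53 and 1.77 TPM in the WT replicates, from 4503, 1231 and 1901 read ends in K700E and 152, 138 and 160 in WT. The K700E libraries differed among themselves by 4.18 times, with replicate 1 far above the other two, while the WT libraries differed by 1.47 times. The means were 34.4 ± 26.4 TPM in K700E and 1.85 ± 0.362 TPM in WT (SD, n = 3 each), a ratio of 18.6 and a log2(TPM + 1) difference of 3.39 (SE 0.46). Without K700E replicate 1 the ratio of the means was 10.4. The lowest K700E library was still 6.89 times the highest WT library.

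CA3, a form with weak carbon dioxide activity, was near the lower limit of the tested range in WT libraries. It stood at 4.40, 11.0 and 6.45 TPM in K700E replicates 1, 2 and 3, against 0.763, 0.825 and 0.983 TPM in the WT replicates, from 338, 967 and 585 read ends in K700E and 57, 82 and 98 in WT. All K700E values lay above all WT values, and K700E replicate 2 was the highest. The means were 7.29 ± 3.39 TPM in K700E and 0.857 ± 0.114 TPM in WT (SD, n = 3 each), a ratio of 8.50. The log2(TPM + 1) difference was 2.08 (SE 0.28), which understates the change of a gene this low; with a pseudocount of 0.1 it was 2.85.

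CA13, a widely expressed cytosolic form, differed least. It stood at 7.94, 6.38 and 5.90 TPM in K700E replicates 1, 2 and 3, against 4.33, 3.39 and 3.45 TPM in the WT replicates, with 1377, 1265 and 1209 read ends in K700E and 731, 760 and 777 in WT. The groups did not overlap here either, but the lowest K700E library was only 1.36 times the highest WT library. The means were 6.74 ± 1.06 TPM in K700E and 3.73 ± 0.528 TPM in WT (SD, n = 3 each), a ratio of 1.81 and a log2(TPM + 1) difference of 0.71 (SE 0.17). Over all genes tested, 19.0% had every K700E library above every WT library and 1.15% were called higher by limma at an adjusted p under 0.05. The choice of the 4 genes used this contrast, so nothing is read from those shares. By size of the log2 difference CA2 ranked 3, CA1 33, CA3 49 and CA13 821 among the 15493 genes.

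**Figure D1:**
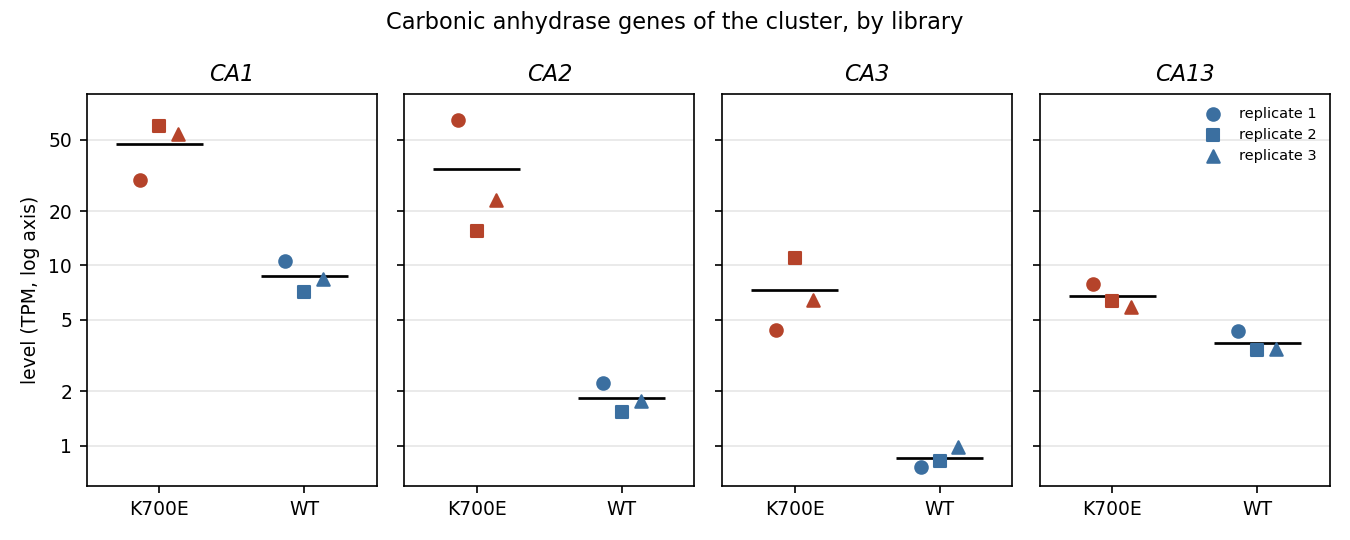
Level of each gene (TPM, log axis) in the 3 K700E libraries (left, red) and the 3 WT libraries (right, blue); symbols mark the replicate and bars the group mean. All 4 genes lay higher in K700E libraries; replicate 1 was the highest K700E library for CA2 and CA13 and the lowest for CA1 and CA3.

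The shares of CA1 and CA2 varied more between K700E libraries than between WT libraries. CA1 made up 27.9, 64.3 and 60.1% of their summed level in K700E replicates 1, 2 and 3, against 59.2, 55.3 and 57.6% in the WT replicates. In K700E replicate 1 the order was CA2, CA1, CA13 and CA3, and in K700E replicates 2 and 3 it was CA1, CA2, CA3 and CA13. In each WT library the order was CA1, CA13, CA2 and CA3. Within K700E the ranges of CA1 and CA2 overlapped, as did those of CA3 and CA13, whereas within WT no ranges overlapped. The level of CA2 relative to CA1 was 2.17, 0.261 and 0.433 in K700E replicates 1, 2 and 3, against 0.211, 0.215 and 0.210 in the WT replicates. In every K700E library this ratio was above every WT library, and in K700E replicate 1 alone CA2 exceeded CA1. The level of CA13 relative to CA1 lay lower in K700E, at 0.266, 0.108 and 0.111, against 0.408, 0.476 and 0.410 in WT. CA3 relative to CA1 was 0.148, 0.186 and 0.121 in K700E and 0.0718, 0.116 and 0.117 in WT, so K700E replicate 3 lay close above the highest WT library.

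The summed level was close between K700E libraries although CA1 and CA2 were not. It was 107, 92.0 and 88.8 TPM in K700E replicates 1, 2 and 3, against 18.0, 12.9 and 14.6 TPM in the WT replicates. The mean sum was 95.8 ± 9.53 TPM in K700E and 15.2 ± 2.59 TPM in WT (SD, n = 3 each), a ratio of 6.32. K700E replicate 1, with the lowest CA1 and CA3, had the highest CA2 and the highest sum. In bulk RNA, a higher share of cells that express a gene and more of its RNA per cell cannot be told apart.

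**Figure D2:**
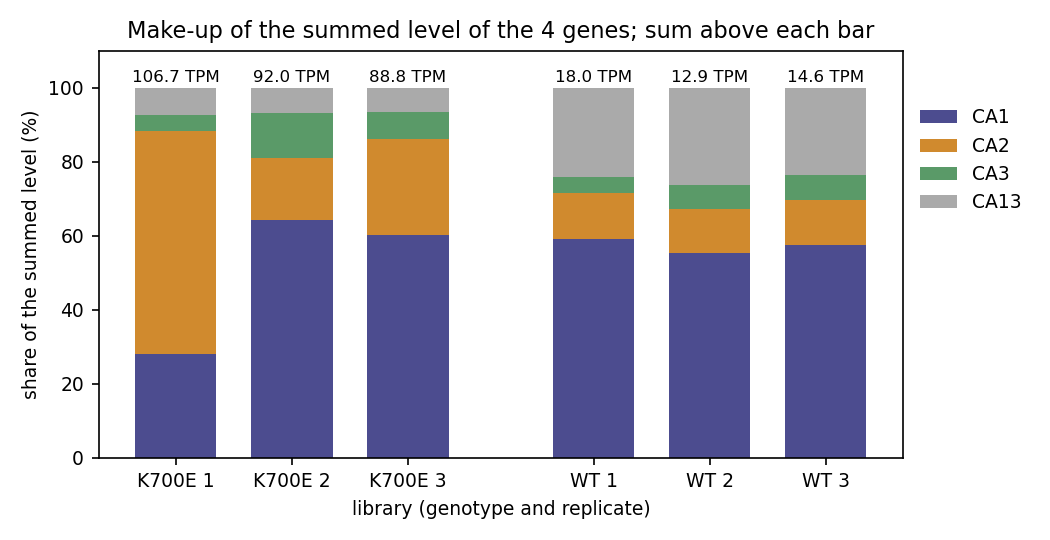
Share (%) of each gene in the summed TPM of CA1, CA2, CA3 and CA13, with the K700E libraries left and the WT libraries right; the sum stands above each bar. K700E replicate 1 is mostly CA2 (60.5%), while CA1 makes up 55.3 to 59.2% in the WT libraries.

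None of the genes next to the cluster passed the test. Of 39 other listed genes within 1000000 bases of it, 5 reached a mean of 1 TPM and 34 did not, 23 of them at 0 in all libraries. None of the 5 was called by limma, none had an unadjusted p under 0.05, and limma-voom called 0 of 7; their K700E and WT values overlapped in all 5. Their median log2 difference was -0.02, against 0.13 over all genes tested. Over all genes 1.38% were called in either direction.

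RBIS, whose product takes part in ribosome assembly, ends 25.0 kb before CA13. It stood at 96.1, 94.2 and 78.6 TPM in K700E and 111, 74.0 and 89.3 TPM in WT replicates 1, 2 and 3, with a log2 difference of -0.02 (SE 0.18, limma adjusted p 0.975). E2F5, which encodes an E2F transcription factor, stood at 13.3, 9.72 and 10.4 TPM in K700E and 17.2, 9.32 and 11.9 TPM in WT (limma adjusted p 0.787). LRRCC1, a centrosome gene, was at 16.0 ± 1.04 TPM in K700E and 20.7 ± 5.23 TPM in WT (SD, n = 3 each; limma adjusted p 0.462). On the other side the nearest tested gene, the transcript ENSG00000253154, lies 458 kb from CA2 and stood at 5.15 ± 2.98 TPM in K700E and 3.94 ± 1.03 TPM in WT (SD, n = 3 each; log2 difference 0.22, limma adjusted p 0.800). WWP1, a ubiquitin ligase gene 961 kb from CA2, was at 15.6 ± 1.88 TPM in K700E and 13.3 ± 2.85 TPM in WT (SD, n = 3 each; limma adjusted p 0.593). With leave-one-out fits the log2 differences of RBIS, E2F5 and ENSG00000253154 changed sign.

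The antisense gene inside the cluster, CA3-AS1, averaged below 1 TPM and was too low for the main test. It had 0.233, 0.335 and 0.148 TPM in K700E replicates 1, 2 and 3 (28, 46 and 21 read ends), against 0, 0.0193 and 0.0321 TPM in the WT replicates (0, 3 and 5 read ends). K700E replicate 2 was the highest library for both CA3-AS1 and CA3. ATP6V0D2, a proton pump subunit gene of bone-resorbing cells within the same window, had 0.425, 0.207 and 0.160 TPM in K700E, against 0.0291, 0.139 and 0.109 TPM in WT. Both CA3-AS1 and ATP6V0D2 had a mean of at least 10 read ends. They were thus among the 7 neighbouring genes tested by limma-voom, which called 0.

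Widening the window to 5000000 bases gave 26 tested genes, of which 1 rose and 1 fell. FABP5, a fatty acid carrier gene with many processed pseudogenes that can share its reads, rose to 30.7, 24.3 and 19.8 TPM in K700E, against 9.93, 8.48 and 10.3 TPM in WT (log2 difference 1.28, limma adjusted p 0.0276). The long non-coding RNA LINC01419, about 1.8 Mb from CA13, fell to 5.49, 2.40 and 8.75 TPM in K700E, against 63.4, 30.8 and 46.2 TPM in WT (log2 difference -2.94, limma adjusted p 0.0220). Neither was called without WT replicate 3 (limma adjusted p 0.136 and 0.123) or without K700E replicate 1 (0.0746 and 0.0908), and FABP5 was also not called without K700E replicate 2 (0.0905) or WT replicate 2 (0.0606). Neither passed when genes of any level were tested (limma adjusted p 0.0780 for FABP5 and 0.0855 for LINC01419). On the whole of chromosome 8, outside the cluster, 9 of 524 tested genes rose (1.72%, against 1.15% of all genes) and 5 fell (0.954%, against 0.232%). With median-ratio scaling 5 genes of chromosome 8 were called higher and 5 lower. Without WT replicate 3 limma called 0 genes in either direction, on chromosome 8 and over all genes alike, where 1492 genes had an unadjusted p under 0.05. The median log2 difference on chromosome 8 was 0.08, against 0.13 over all genes.

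**Figure D3:**
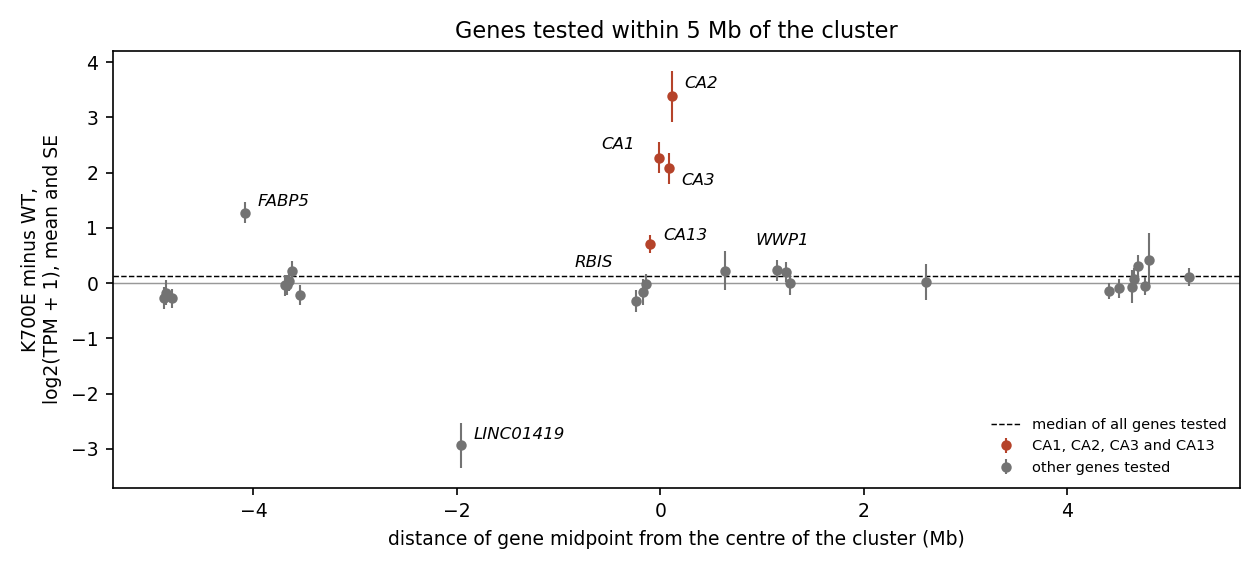
Log2(TPM + 1) difference of K700E minus WT (mean and moderated SE from limma) for each tested gene within 5 Mb, by distance of its midpoint from the centre of the cluster; the dashed line is the median of all tested genes. Of the 4 carbonic anhydrase genes (red), CA1, CA2 and CA3 stand above every other gene drawn, and CA13 (0.71) lies below FABP5 (1.28). The choice of the 4 genes used this contrast. FABP5 and LINC01419 lie farther from the cluster than its nearest neighbours.

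Carbonic anhydrase genes elsewhere in the genome did not pass the test. Of 15 carbonic anhydrase genes listed, 10 reached a mean of 1 TPM, the 4 of the cluster and 6 others. Of a list of 13 other family members, which also held the receptor phosphatase genes PTPRG and PTPRZ1, these 6 were tested, and 0 were called by limma, 0 had an unadjusted p under 0.05 and limma-voom called 0 of 7. Their groups overlapped in all 6 cases, whereas 24.0% of all genes tested had groups that did not overlap and 1.38% were called. Their median log2 difference was 0.00, against 0.13 over all genes. CA8, an inactive relative of the enzymes that also lies on chromosome 8 but outside the cluster, stood at 16.0, 16.9 and 16.0 TPM in K700E, against 19.0, 12.8 and 15.2 TPM in WT (limma adjusted p 0.874). CA11, another inactive relative, stood at 22.2 ± 1.91 TPM in K700E and 19.3 ± 2.15 TPM in WT (SD, n = 3 each; limma adjusted p 0.553).

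The membrane-bound and mitochondrial forms that were tested also overlapped between the genotypes. CA9, the hypoxia-induced form at the cell surface, varied widely in both genotypes, at 15.5, 3.88 and 4.38 TPM in K700E, against 14.3, 2.02 and 11.2 TPM in WT (limma adjusted p 0.948). CA12 stood at 1.95 ± 1.46 TPM in K700E and 3.75 ± 2.56 TPM in WT, with overlapping libraries (SD, n = 3 each; limma adjusted p 0.549). CA14 stood at 2.32, 2.34 and 1.35 TPM in K700E, against 1.91, 2.25 and 2.14 TPM in WT (limma adjusted p 0.897). CA5B, a mitochondrial form, stood at 1.62 ± 0.216 TPM in K700E and 1.25 ± 0.165 TPM in WT (SD, n = 3 each; limma adjusted p 0.514). CA7, a cytosolic form below the limit of 1 TPM, was at 0.735, 0.676 and 0.924 TPM in K700E and 0.302, 0.370 and 0.473 TPM in WT. Every K700E library of CA7 thus lay above every WT library, with a ratio of the means of 2.04, although it lies outside the cluster. CA6 and CA10 were at 0 in all 6 libraries.

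Within the family the order of levels thus differed between the genotypes. In K700E the highest means were those of CA1 (47.4 TPM), CA2 (34.4 TPM), CA11 (22.2 TPM) and CA8 (16.3 TPM), where the libraries of CA2 overlapped those of CA1, CA11 and CA8. In WT they were those of CA11 (19.3 TPM), CA8 (15.7 TPM), CA9 (9.17 TPM) and CA1 (8.72 TPM), with overlaps between each neighbour in this order, and CA2 and CA3 ranked 8 and 10.

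**Figure D4:**
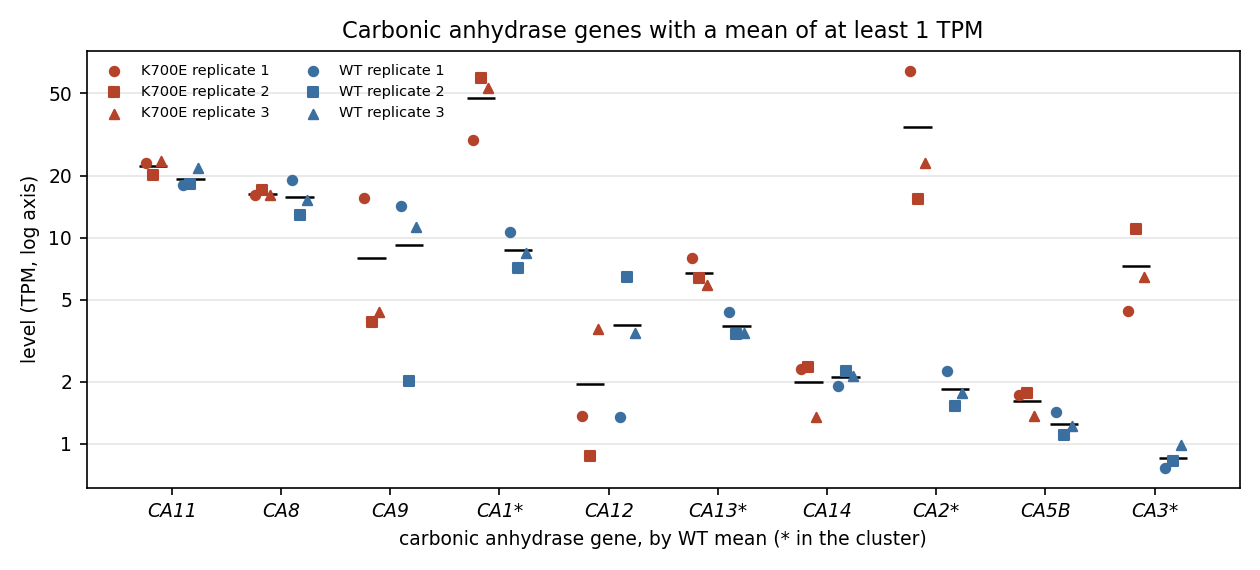
Level (TPM, log axis) of the 10 carbonic anhydrase genes that averaged 1 TPM or more, ordered by WT mean, with K700E libraries (red) left of WT libraries (blue), symbols for replicates and bars for means. Of these 10, only the 4 starred genes of the cluster have K700E and WT values that do not overlap. CA7, below 1 TPM and not drawn, also had values that do not overlap. The starred genes were chosen on this contrast, so their separation is a description, and CA3 passed the limit through its K700E level. Of all genes tested, 24.0% had values that do not overlap.

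Transporters that move the substrates and products of these enzymes had no member past the threshold. Of 27 genes for bicarbonate, proton, lactate and gas transport, 15 were tested; limma called 0, with 4 at an unadjusted p under 0.05, and limma-voom called 0 of 24. Over all 15493 genes, limma called 1.38%, and 2563 had an unadjusted p under 0.05. In 3 of the 15 every K700E library lay above every WT library, a share near the 19.0% of all genes tested. The lactate and proton carrier gene SLC16A1 stood at 249, 235 and 204 TPM in K700E, against 180, 122 and 144 TPM in WT (limma adjusted p 0.132). The Rh blood group genes RHD and RHCE, near-identical copies whose reads can be shared, stood at 61.9 ± 7.55 and 83.8 ± 24.2 TPM in K700E, against 35.8 ± 9.54 and 46.3 ± 13.3 TPM in WT (SD, n = 3 each; limma adjusted p 0.135 and 0.214). SLC4A1, the chloride and bicarbonate exchanger of the red cell membrane, was at 9.99, 5.21 and 15.0 TPM in K700E and 11.3, 18.0 and 15.1 TPM in WT. The median log2 difference of the list was 0.30, against 0.13 over all genes.

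None of the other red cell genes listed passed the test. Of 34 erythroid genes, which share SLC4A1 and RHAG with the transport list, 31 were tested; limma called 0, with 7 at an unadjusted p under 0.05, and limma-voom called 0 of 32. Among all 15493 genes tested, limma called 1.38%, and 2563 had an unadjusted p under 0.05. At that share of calls, 0 in a list this short says little about its genes. In 4 of the 31 every K700E library lay above every WT library and in 1 below, against 19.0% and 4.99% of all genes tested. The 1 below was AHSP, at 8.09 ± 1.28 TPM in K700E and 12.2 ± 2.65 TPM in WT (SD, n = 3 each, limma adjusted p 0.248). Among the 7 with an unadjusted p under 0.05, AHSP and HBD were lower in K700E and the others higher. The median log2 difference of the list was 0.02, against 0.13 over all genes. ALAS2, which encodes the enzyme that starts erythroid heme synthesis, stood at 1174 ± 197 TPM in K700E and 748 ± 28.2 TPM in WT, and the transferrin receptor gene TFRC at 839 ± 225 TPM in K700E and 491 ± 33.3 TPM in WT (SD, n = 3 each; limma adjusted p 0.0923 and 0.122). TRIM10, a gene of late erythroid cells, stood at 16.3, 5.14 and 2.95 TPM in K700E, against 0.885, 0.873 and 0.898 TPM in WT (limma adjusted p 0.108). As for CA2, K700E replicate 1 was its highest library. The embryonic globin gene HBE1, named after its values were seen, also peaked there, at 3710.1, 634 and 603 TPM in K700E replicates 1, 2 and 3, against 1368, 834 and 1182 TPM in WT (limma adjusted p 0.989).

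None of the listed transcription factors and regulators of erythroid and megakaryocyte genes passed the test. Of 19 regulators 17 were tested; limma called 0, with 1 at an unadjusted p under 0.05, and limma-voom called 0 of 19. For comparison, limma called 1.38% of all 15493 genes, and 2563 had an unadjusted p under 0.05. At that share of calls, 0 among 17 genes says little about them. In 2 of the 17 every K700E library lay above every WT library, against 19.0% of all genes tested. The signalling factor gene STAT5B stood at 138 ± 5.97 TPM in K700E and 110 ± 8.71 TPM in WT, and RUNX1 at 28.6 ± 1.81 TPM in K700E and 23.8 ± 0.235 TPM in WT (SD, n = 3 each; limma adjusted p 0.241 and 0.373). THRB, a thyroid hormone receptor gene, stood at 14.3 ± 1.18 TPM in K700E and 11.0 ± 3.11 TPM in WT (SD, n = 3 each; limma adjusted p 0.429). KLF1, an erythroid factor, was at 116, 118 and 147 TPM in K700E and 116, 135 and 140 TPM in WT. The median log2 difference of the list was 0.12, against 0.13 over all genes.

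No marker of other cell types known to make these enzymes passed the test. Of 11 skeletal muscle markers MYOD1 and MYOG were at 0 in all libraries and 10 did not reach 1 TPM. The exception, the filament gene DES, stood at 7.55 ± 3.83 TPM in K700E and 15.3 ± 0.936 TPM in WT (SD, n = 3 each, limma adjusted p 0.210). Every K700E library of DES lay below every WT library. The list summed to 4.23 to 12.7 TPM in K700E and 15.3 to 17.6 TPM in WT, and most of each sum was DES. Below 1 TPM, MB lay above WT in every K700E library (mean 0.282 against 0.0634 TPM), and the rest overlapped. None of 7 fat cell markers reached 1 TPM, with PLIN1 and FABP4 at 0. Their sums were 0.196 to 0.401 TPM in K700E and 0.0901 to 0.140 TPM in WT. Of 9 markers of bone-resorbing cells 4 were tested and 0 called. The list summed to 53.3 to 75.2 TPM in K700E and 32.2 to 104 TPM in WT. Among those tested, NFATC1 lay above WT in every K700E library, CTSK lay below, and the rest overlapped. Below 1 TPM, ATP6V0D2, DCSTAMP and MMP9 lay above WT in every K700E library, and the rest overlapped. As a share of all genes tested, 19.0% lay above in this way, 4.99% lay below, and limma called 1.38%. Those shares leave out genes below 1 TPM, so they do not cover MB, ATP6V0D2, DCSTAMP or MMP9. Little can be read from a few genes in such short lists. Of 10 colon epithelium markers EPCAM alone was tested and not called, GUCA2B was at 0, and the sums were 49.9 to 62.5 TPM in K700E and 43.5 to 79.2 TPM in WT. In the osteoclast and colon lists 0 genes had an unadjusted p under 0.05 and limma-voom called 0, as in the other marker lists, where only DES had an unadjusted p under 0.05 beside the K562 markers given above.

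Genes whose profile over the 6 libraries was most like that of a member were found by the mean absolute difference of log2(TPM + 1) values, each gene being centred on its own mean. The genotype difference that chose the members also shapes this measure, so the ranks are a description. The spread between replicates shapes it too, so a shared order of replicates follows in part from the choice of near genes. Among 13627 other genes with a symbol, CA3 was the third nearest to CA1 and CA1 the fourth nearest to CA3, at 0.229 log2 units. CA2 was farther from both, at 0.777 log2 units from CA1 and 0.923 from CA3. It ranked 468 by likeness to CA1 and 4361 by likeness to CA3, while by likeness to CA2, CA1 ranked 43 and CA3 ranked 83. The other near genes for CA1 were TRBD1, the phospholipid phosphatase gene PLPP4, the GABA receptor gene GABRQ and the pseudogene SSX6P. CA3 shared TRBD1 and PLPP4 with CA1, and its list also held the non-coding genes ZFPM2-AS1 and LINC02434. TRBD1, the nearest for both, is a segment 9 bases long whose TPM rests on 1, 2 and 2 read ends in K700E and 0 in each WT library, so its likeness has no depth behind it. PLPP4 stood at 1.99, 4.39 and 4.34 TPM in K700E (308, 775 and 791 read ends), against 0.186, 0.220 and 0.150 TPM in WT (28, 44 and 30 read ends), with K700E replicate 1 lowest as for CA1.

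Of the genes near CA2 in profile, 3 are given here, and in each K700E replicate 1 was the highest library, as for CA2. The measure that picked them covers the same libraries, so this shared peak follows in part from the choice. IL13RA2, a decoy receptor for interleukin 13, stood at 44.8, 15.9 and 21.2 TPM in K700E, against 0.676, 0.901 and 1.00 TPM in WT, at a distance of 0.244 log2 units. The protease inhibitor gene TFPI2 stood at 16.0, 15.7 and 9.10 TPM in K700E, against 0.755, 0.490 and 0.590 TPM in WT, where K700E replicates 1 and 2 were close. PRR9 stood at 30.5, 4.20 and 6.26 TPM in K700E, against 0.301, 0.907 and 0.904 TPM in WT.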

How the data were processed

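The authors deposited TPM values per gene in a separate table for each genotype. The WT table is laid out as featureCounts output, per the file headers, with exons and gene lengths, and its column names end as STAR names its sorted files. Per the submitters' processing notes cutadapt 2.10, TopHat2 2.1, featureCounts 2.0.1, DESeq2 and build GRCh37 (hg19) were used, so the aligner is not settled, and that of the K700E table is not given in the sources used here; a difference in processing between the tables cannot be told apart from genotype. Gene length, in bases, is the other deposited column used.

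Both tables hold 62111 genes in the same order, each library sums to 1000000 TPM, and TPM times length gave whole multiples of 1 step per library for 100% of values above 0 (tolerance 0.01), which gives the read ends quoted. Short or low genes therefore carry counting error, while abundant ones are limited by the spread of 3 libraries a group. Symbols came from tables of gene names by gene ID, older symbols through RefSeq synonyms.

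The test was limma 3.58.1 (R 4.3.3) on log2(TPM + 1), for genes averaging 1 TPM or more (trend, genotype as the only term, two-sided, Benjamini-Hochberg at 0.05 over all 15493 genes). Named beyond the 4 genes were tested neighbours within 1000000 bases, carbonic anhydrases above the limit and called markers. Up to 3 genes of each other list by smallest p, or all that passed, were named as well. So were the 5 nearest profiles for CA1, CA2 and CA3. SLC4A1, KLF1, HBE1, HBG1, GATA1, CA7, DES, EPCAM, CA3-AS1, ATP6V0D2, ENSG00000253154, FABP5, LINC01419 and markers at 0 were added after their values were seen. The same holds for AHSP, HBD, MB, NFATC1, CTSK, DCSTAMP and MMP9. Members and lists were chosen with earlier results of these data known. The procedure was tested on simulated data. Alternatives were other pseudocounts, filters and scaling, no trend, a replicate block, limma-voom on recovered reads (mean of at least 10) and leaving out each library. Tables and figures were made with Python 3.11.15, pandas 2.3.3, numpy 2.4.6 and matplotlib 3.10.9. Splice junctions were not analysed here. No sequence of the cluster is printed. Some genes that the naming rule selects are not reported here.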

Additional observations from a re-analysis of the deposited data

How the results depend on the processing

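The members were higher in K700E in all 55 of their values under the alternatives, counting each gene under each setting. Of these, 50 moved by less than the spread between libraries. The members were chosen on this contrast, so both counts are a description. No trend, no filter, a minimum of 5 TPM and the replicate block cannot change the difference of a gene, which was 2.27 for CA1 in each. With a pseudocount of 5 the log2 difference was 2.32 for CA2, 1.03 for CA3 and 0.43 for CA13. CA3 was at 2.85 with a pseudocount of 0.1 and 2.94 with limma-voom, and had no value with a minimum of 5 TPM. Leaving out 1 library it ran from 2.09 to 2.57 for CA1, 2.81 to 3.81 for CA2, 1.77 to 2.35 for CA3 and 0.60 to 0.80 for CA13; since the groups do not overlap, the direction could not change. The calls over all genes (178 higher, 36 lower) were less stable: 309 and 72 with limma-voom, 73 and 19 with a minimum of 5 TPM, 113 and 51 with median-ratio scaling, and 0 and 0 with no filter (4891 at an unadjusted p under 0.05). They ran from 0 to 133 higher and 0 to 37 lower when 1 library was left out, with 0 without WT replicate 3 (1492 unadjusted). On chromosome 8 the calls (9 higher, 5 lower) were 16 higher with limma-voom, 2 and 3 with a minimum of 5 TPM, 5 and 5 with median-ratio scaling, 0 and 0 with no filter, and 0 to 7 higher and 0 to 4 lower when 1 library was left out. Neighbouring genes gained 1 higher and 1 lower call with the window of 5000000 bases. The causes of these shifts were not tested. The lists of other carbonic anhydrases, transporters, erythroid genes and regulators had 0 calls in every alternative. Of 23 other named genes tested, 6 changed sign: CA8 was at -0.10 with median-ratio scaling, and with 1 library left out CA8 ran from -0.057 to 0.21, CA9 from -0.85 to 0.32, CA14 from -0.15 to 0.10, E2F5 from -0.35 to 0.062, RBIS from -0.16 to 0.13 and ENSG00000253154 from -0.14 to 0.58. With the replicate number as a block 59 genes were higher and 8 lower. On chromosome 8 they were 2 and 1, without FABP5 (limma adjusted p 0.0652). The deviations of same-numbered libraries had correlations of 0.28, -0.19 and 0.30 for numbers 1, 2 and 3. K700E replicate 2 was most like WT replicate 1 (0.19), and K700E replicate 3 was most like WT replicate 2 (0.43). So few correlations cannot settle whether the numbers pair the samples.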
